A study of Mus musculus with 24 samples.

Results

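The cytosolic sulfotransferases described here are 9 genes that were taken from a table of mouse liver RNA by their symbols, Sult3a1, Sult3a2, Sult1e1, Sult1a1, Sult1b1, Sult1c2, Sult1d1, Sult2a8 and Sult5a1. All 9 were found among the 54432 genes of the table, each on 1 row. The table held 12 further genes of the same family, which serve as comparison. Cytosolic sulfotransferases move a sulfonate group from the donor PAPS (3'-phosphoadenosine-5'-phosphosulfate) to hydroxyl or amino groups of small molecules, which makes most products easier to excrete and often inactive as hormones. The liver is a main site of the reaction, with phenols, estrogens, other steroids, bile acids, thyroid hormones and drugs among the substrates. In mice several of these genes, including Sult1e1, Sult3a1 and members of the Sult2a group, are known for higher expression in the female than in the male liver.

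RNA came from whole liver of 24 male C57BL/6 mice in 4 groups of 6, and all mice, the wild type included, had received an adeno-associated virus encoding Cre recombinase, the enzyme that excises floxed DNA. The groups are wild type (WT), Trib1 Flox/Flox (Trib1-KO), Cebpa Flox/Flox (Cebpa-KO) and Trib1;Cebpa Flox/Flox (DKO). Mice were 20 to 21 weeks old at injection, were kept on chow, and were killed 4 weeks later after a fast of 4 h. They formed 2 cohorts with 3 mice of each group. The promoter that drove Cre is not given in the sources used here, so which liver cells were recombined is not known.

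Sequences of the reference show how alike the genes are that the results turn on. Sult3a1 and Sult3a2 are neighbours on chromosome 10, and their coding sequences were identical at 799 of 879 aligned bases (90.9%). The first 90 coding bases of each are shown because the pair was high in the same libraries, and capitals mark the 16 letters of Sult3a2 that differ from Sult3a1.
Sult3a1: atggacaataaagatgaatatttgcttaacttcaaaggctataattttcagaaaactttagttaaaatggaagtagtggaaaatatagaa
Sult3a2: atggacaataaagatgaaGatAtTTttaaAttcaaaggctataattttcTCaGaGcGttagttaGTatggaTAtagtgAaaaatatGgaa

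Sult2a8 and Sult2a7 lie next to each other on chromosome 7 and moved in opposite directions, so their starts are shown in the same way. They were identical at 559 of 843 aligned coding bases (66.3%), and capitals mark the 39 letters of Sult2a7 that differ from Sult2a8.
Sult2a8: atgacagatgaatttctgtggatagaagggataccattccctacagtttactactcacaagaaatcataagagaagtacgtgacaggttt
Sult2a7: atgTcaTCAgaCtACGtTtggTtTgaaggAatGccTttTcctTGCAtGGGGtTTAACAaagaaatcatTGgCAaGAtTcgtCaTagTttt

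The likeness bears on the counting of reads. Of all 31-base words in the transcripts of Sult3a1 and Sult3a2, 13.8% and 17.2% also occurred in another sulfotransferase transcript, with 155 words shared between the pair. The share was 13.9 to 74.5% for Sult2a1 to Sult2a6 and 0.157% for Sult2a7. It was 0% for Sult1e1, Sult1a1, Sult1b1, Sult1c2, Sult1d1, Sult2a8 and Sult5a1. How reads were divided within the Sult3a pair and among Sult2a1 to Sult2a6 is therefore uncertain, and their sums are given as well.

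Promoter windows of RefSeq (GRCm38.p6, 250 bases before to 50 after each start) were matched by symbol for all 9 members, with 11 windows in all because Sult1b1 and Sult2a8 have a second start. On either strand, TTGCNNAA, a core of the motif of C/EBP factors, occurred in 2 of the 11 windows, those of Sult1c2 and of 1 start of Sult2a8, against 10.8% of 32851 windows of all genes. The STAT5 motif TTCNNNGAA occurred in 1, that of Sult3a1, against 8.3%, and the HNF4 motif CAAAGTCCA in 1, that of 1 start of Sult1b1, against 0.475%. The C/EBP match of Sult1c2 and the HNF4 match of Sult1b1 begin 35 and 25 bases after the start. The C/EBP match of Sult2a8 begins 217 bases before its start. The motifs share no letters in the windows where they were found, since each of these windows held a single match. The 200 bases before the start that lie outside any annotated exon are shown for the 2 members with the largest measured rises, and capitals mark the STAT5 match, which begins 109 bases before the start of Sult3a1. They are chr10:33857521-33857720 on the plus strand for Sult3a1 and chr5:87591612-87591811 on the minus strand for Sult1e1, where no letters of the 3 motifs were found. A match describes letters and does not show that a factor bound there.
Sult3a1 promoter: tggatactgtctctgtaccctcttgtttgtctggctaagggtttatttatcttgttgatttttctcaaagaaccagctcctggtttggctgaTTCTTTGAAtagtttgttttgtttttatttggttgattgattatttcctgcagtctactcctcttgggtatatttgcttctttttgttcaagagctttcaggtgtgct
Sult1e1 promoter: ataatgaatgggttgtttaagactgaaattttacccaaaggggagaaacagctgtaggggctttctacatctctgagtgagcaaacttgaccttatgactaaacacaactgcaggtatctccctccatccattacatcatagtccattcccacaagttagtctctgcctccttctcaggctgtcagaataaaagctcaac

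Values are normalized estimated counts, and the 24 libraries summed to between 23385895 and 27190701 of them. Cebpa, the targeted transcription factor gene, was at 50.5 to 102 in the 12 libraries of Cebpa-KO and DKO against 4264 to 7412 in WT. Trib1, the targeted pseudokinase gene, went against its label, with 3734 to 4784 in the libraries labelled Trib1-KO against 874 to 1475 in WT (limma adjusted p = 3.5e-06). It was also higher in DKO (286 to 1077) than in Cebpa-KO (215 to 646, limma adjusted p = 0.046). The table has 1 value per gene and cannot show whether the floxed part was lost, so groups are named by their labels throughout. In bulk tissue, fewer cells of a type and less RNA per cell cannot be told apart. Against WT, 8 of 10 hepatocyte markers were lower in the libraries labelled Trib1-KO, where 10.9% of all genes tested were lower and 11.8% higher by limma, and their sum was 1.10e+06 to 1.22e+06 against 2.40e+06 to 3.28e+06, while 10 of 12 Kupffer cell and macrophage markers were higher and summed to 18896 to 22138 against 9915 to 17988. The hepatocyte sum is weighted by Alb, whose mean was 3.57e+05 in the libraries labelled Trib1-KO against 1.45e+06 in WT. No hepatocyte, Kupffer cell or macrophage marker was at 0 in all libraries of a group. Of the other tested markers in that comparison, 4 of 10 hepatic stellate cell, 3 of 10 lymphocyte and 3 of 7 neutrophil markers were higher and 0 lower, 3 of 9 cholangiocyte markers were lower and 0 higher, 1 of 4 kidney and gut epithelial markers was lower, and of 10 sinusoidal endothelial markers 3 were higher and 2 lower. After rescaling each library by its total outside the major urinary protein (Mup) genes, called Mup-free below, 7 hepatocyte markers were lower, 11 Kupffer cell and macrophage, 5 stellate, 4 lymphocyte, 4 neutrophil and 7 endothelial markers were higher, and 2 cholangiocyte markers were lower. Over all genes, 5181 of 19835 were higher and 987 lower with that scaling. The part of these cell types in the results below was not tested.

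Differences below are log2 fold changes ± standard error from limma, on log2 of the value plus 1, which understates changes of low genes. Adjusted p-values are limma's with the Benjamini-Hochberg method over all 19810 genes tested, a gene passed when its adjusted p was under 0.05, and each group has n = 6 libraries. All 9 members were tested. Sult3a1 and Sult3a2 reached the required mean value of 1 only through the libraries labelled Trib1-KO (0.397 and 0 over the other 18 libraries), so they could not have been tested without being high there. Counts that involve those libraries are therefore given over the other 7 members.

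In the libraries labelled Trib1-KO, 3 of these 7 members rose against WT (Sult1e1, Sult1a1 and Sult5a1), 3 fell (Sult1b1, Sult1c2 and Sult2a8), and Sult1d1 did not pass. Over all genes tested, 11.8% were higher and 10.9% lower in that comparison. In 5 of the 7 the libraries did not overlap with those of WT, against 12% of all genes, and the other two were Sult1d1 and Sult5a1. The median difference of the 7 was 0.34 against 0.01 over all genes. Of all 9 members, Cebpa-KO had 2 higher than WT (Sult1b1 and Sult1c2) and 2 lower (Sult1d1 and Sult5a1), where 4.6% and 5.22% of all genes were higher and lower. DKO against WT also had 2 higher (Sult1b1 and Sult1c2) and 2 lower (Sult1a1 and Sult1d1), where all genes gave 2.84% and 3.25%. The libraries did not overlap with WT in 3 of 9 members in Cebpa-KO (Sult1b1, Sult1c2 and Sult1d1) and in 1 in DKO (Sult1d1), against 5.17% and 3.11% of all genes. These comparisons share the WT libraries. Sult3a1 and Sult3a2 stood at or near 0 in WT, Cebpa-KO and DKO, which left little room for a fall.

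**Figure D1:**
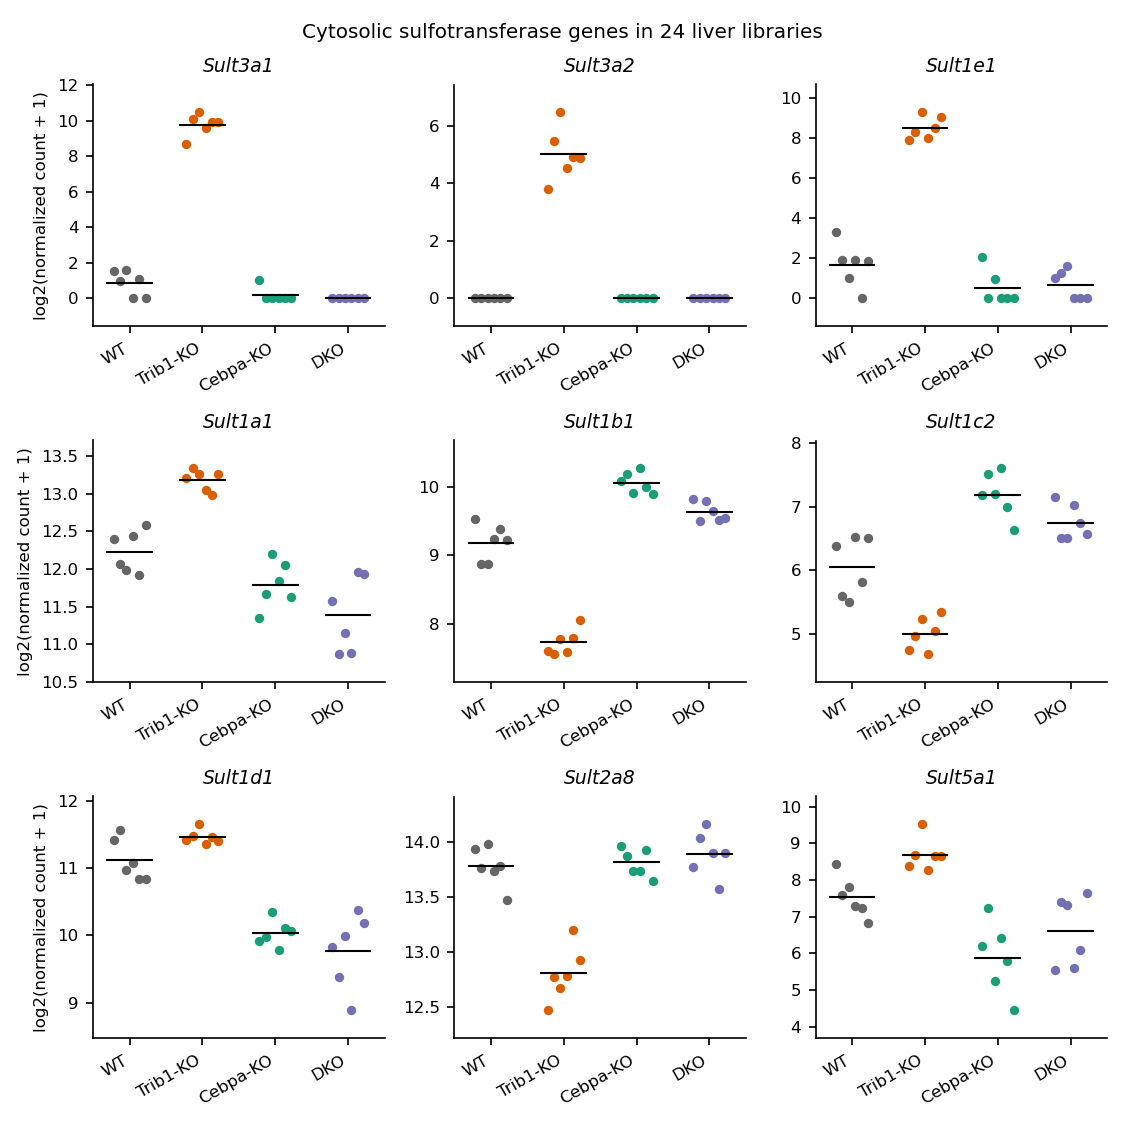
Each point is 1 library and each black line the mean of 6, on log2 of the normalized count plus 1, for the 9 members in 4 groups; panels have separate axes that need not start at 0. Sult3a1, Sult3a2 and Sult1e1 are near or at 0 except in the libraries labelled Trib1-KO, while Sult1b1, Sult1c2 and Sult2a8 are lowest there.

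Sult3a1 (ENSMUSG00000069668.4, chromosome 10, 33857721 to 33879532, plus strand, GRCm38), which encodes a sulfotransferase that acts on amines, was all but absent outside 1 group. Its values in WT were 1.97, 0.948, 2.03, 0, 1.14 and 0. The libraries labelled Trib1-KO had 408, 1087, 1428, 766, 994 and 983. Every one of these lay far above all WT values. The difference was 8.92 ± 0.33. It is given here without a p, because the gene passed the filter on low values only through these libraries. In Cebpa-KO 5 libraries were listed at 0 and the other at 1.06, and in DKO all 6 were at 0. Neither Cebpa-KO (adjusted p = 0.21) nor DKO (adjusted p = 0.13) passed against WT, where the values already stood near the lowest that the table holds. The libraries labelled DKO and Trib1-KO did not overlap.

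Sult3a2 (ENSMUSG00000090298.2, chromosome 10, 33766424 to 33786704, minus strand) was listed at 0 in every library of WT, Cebpa-KO and DKO. Its values in those labelled Trib1-KO were 12.9, 42.8, 87.0, 21.9, 29.2 and 28.0, given without a p for the same reason. No fold is given against a group at 0. The lowest and the highest of these 6 libraries, C1 and C3, were also the lowest and the highest for Sult3a1. The sum of both genes was 981 ± 363 (SD, n = 6) in the libraries labelled Trib1-KO and 1.01 ± 0.897 (SD, n = 6) in WT, and it does not depend on how reads were divided within the pair.

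Sult1e1 (ENSMUSG00000029272.8, chromosome 5, 87575969 to 87591594, minus strand), the estrogen sulfotransferase gene, behaved like Sult3a1 but was not as near to 0 in WT. It stood at 8.84, 2.84, 1.01, 2.76, 0 and 2.63 in WT. Those labelled Trib1-KO had 236, 309, 619, 258, 359 and 524. The groups did not overlap, and the difference was 6.83 ± 0.47 (adjusted p = 7.1e-11), the 12th by size among all genes. The mean was 384 against 3.01. In Cebpa-KO 4 of 6 libraries were at 0 and the highest had 3.18. In DKO 3 of 6 were at 0 and the highest had 2.07. These groups were at -1.17 ± 0.47 and -1.02 ± 0.47 against WT and did not pass (adjusted p = 0.14 and 0.26). Leaving out the WT library B2, the single WT library at 0, or the Cebpa-KO library E1 brought the first to -1.50 (adjusted p = 0.039) and -1.48 (adjusted p = 0.044), which passed.

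Of the other phenol-type members, Sult1a1 (ENSMUSG00000030711.16, chromosome 7, 126672865 to 126676432, minus strand), the main phenol sulfotransferase gene of liver, was abundant in every group. It ran from 3885 to 6162 in WT with a median of 4826, and from 8079 to 10332 in the libraries labelled Trib1-KO with a median of 9637. The lowest of the latter exceeded the highest WT library, and the difference was 0.95 ± 0.18 (adjusted p = 0.00024). Cebpa-KO ran from 2605 to 4704 (median 3461) and overlapped with WT, with a difference of -0.44 ± 0.18 that did not pass (adjusted p = 0.13). DKO ran from 1865 to 3970 (median 2656). Only its highest libraries, H2 with 3970 and H3 with 3893, reached above the lowest WT library of 3885, and the fall of -0.84 ± 0.18 passed (adjusted p = 0.0039).

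Sult1b1, Sult1d1 and Sult1e1 lie side by side on chromosome 5 on the same strand, and each had a different pattern. Sult1b1 (ENSMUSG00000029269.11, 87513339 to 87538195), whose product acts on thyroid hormones and phenols, ran from 466 to 736 in WT (median 596). The libraries labelled Trib1-KO ran from 187 to 265 (median 206), below all WT libraries. Those of Cebpa-KO ran from 944 to 1229 (median 1047), above all WT libraries. The fall was -1.45 ± 0.11 (adjusted p = 3.4e-10) and the rise 0.87 ± 0.11 (adjusted p = 6.4e-06). DKO lay between WT and Cebpa-KO, from 723 to 900 (median 772). It overlapped with WT only through WT library A1 at 736, and was 0.45 ± 0.11 higher (adjusted p = 0.013).

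Sult1d1 (ENSMUSG00000029273.10, 87554645 to 87569027), whose product acts on catecholamines and other phenols, fell in Cebpa-KO, where Sult1b1 rose. It ran from 1832 to 3012 in WT (median 2083) and from 885 to 1309 in Cebpa-KO (median 1043), with no overlap. DKO ran from 473 to 1324 (median 961), also below all WT libraries. The falls were -1.08 ± 0.18 (adjusted p = 0.00019) and -1.34 ± 0.18 (adjusted p = 2.2e-05). The libraries labelled Trib1-KO ran from 2629 to 3206 (median 2776), overlapping with the upper WT libraries, and the difference of 0.34 ± 0.18 did not pass (adjusted p = 0.19). It did pass with the Mup-free scaling, at 0.59 (adjusted p = 0.0078). That scaling moved the median of all genes in this comparison from 0.01 to 0.24, and the calls over all genes from 2330 higher and 2168 lower to 5181 higher and 987 lower. Set against those medians, the difference of Sult1d1 was about as large under both scalings.

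Sult1c2 (ENSMUSG00000023122.6, chromosome 17, 53829637 to 53846339, minus strand), a less abundant member, had the same order of groups as Sult1b1. It ran from 44.5 to 91.0 in WT (median 69.1), from 24.7 to 39.8 in the libraries labelled Trib1-KO (median 31.2), and from 98.8 to 193 in Cebpa-KO (median 146). None of these 3 ranges overlapped. The fall was -1.05 ± 0.20 (adjusted p = 0.00036) and the rise 1.13 ± 0.20 (adjusted p = 0.00047). DKO ran from 89.8 to 141 (median 100.1) and overlapped narrowly with WT. Its rise of 0.69 ± 0.20 passed narrowly (adjusted p = 0.042), and the call was lost without a filter on low values (adjusted p = 0.063), with quantile normalization (adjusted p = 0.051), with only these groups in the fit (adjusted p = 0.10), with a mean for each letter in the library names (adjusted p = 0.057), or without any 1 of the libraries A2, A3, B2, G1, H1 and H2 (adjusted p up to 0.11).

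Sult2a8 (ENSMUSG00000030378.15, chromosome 7, 14410686 to 14446769, minus strand), a bile acid sulfotransferase gene of liver, was the most abundant member in WT per kb of transcript. It ran from 11372 to 16157 in WT (median 13973), and from 5667 to 9427 in the libraries labelled Trib1-KO (median 7009), without overlap. The fall was -0.97 ± 0.11 (adjusted p = 2.1e-07). Cebpa-KO (12823 to 15973, median 14342) and DKO (12167 to 18280, median 15306) covered much the same range as WT, with differences of 0.04 ± 0.11 and 0.11 ± 0.11 (adjusted p = 0.90 and 0.66). The sign of the first turned with the Mup-free scaling (-0.0080) and without WT library B3 (-0.03).

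**Figure D2:**
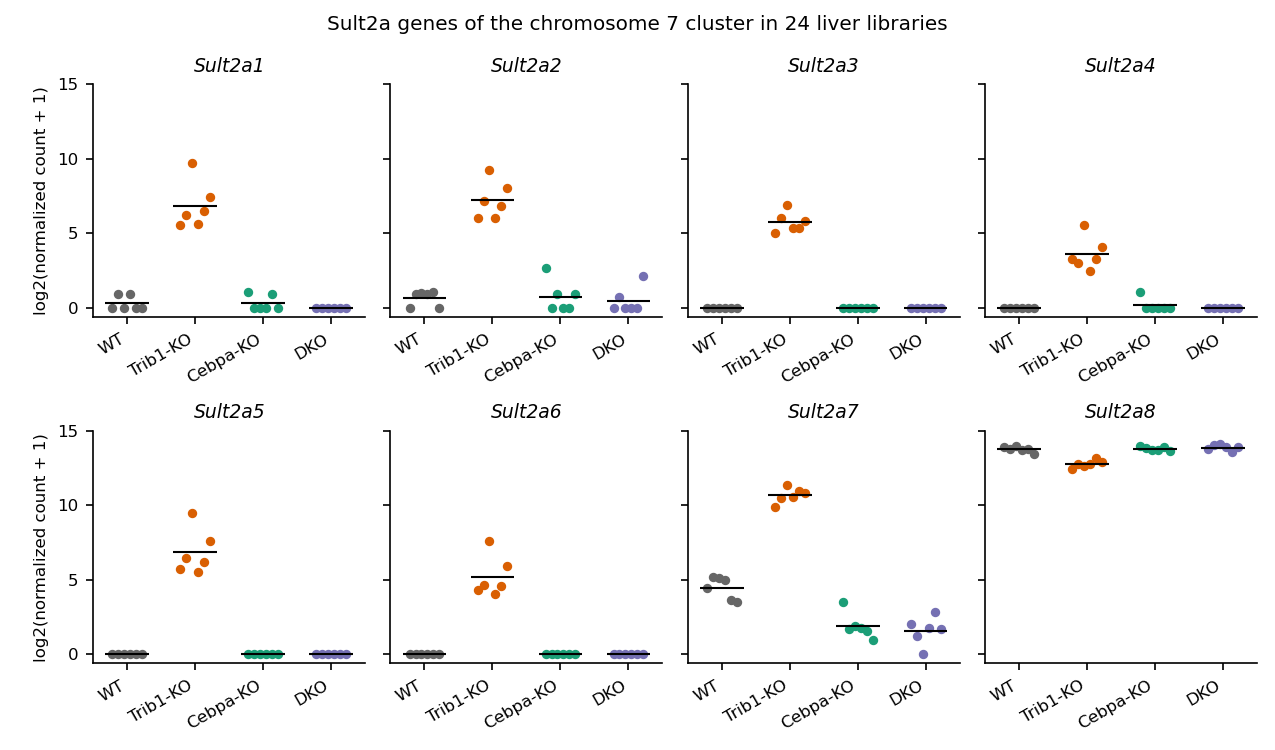
Each point is 1 library and each black line the mean of 6, on log2 of the normalized count plus 1, for the 8 Sult2a genes on a shared axis. Sult2a1 to Sult2a7 are highest in the libraries labelled Trib1-KO, where Sult2a8 is lowest.

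The 7 other Sult2a genes, hydroxysteroid sulfotransferases of the same chromosome 7 cluster, went the other way from Sult2a8. Sult2a7 (ENSMUSG00000094156.2, 14465051 to 14494230) had 10.5 to 35.9 in WT (median 25.5) and 946 to 2716 in the libraries labelled Trib1-KO (median 1687), a rise of 6.22 ± 0.43 (adjusted p = 7.9e-11). It was also lower than WT in Cebpa-KO, at 0.915 to 10.6 (-2.58 ± 0.43, adjusted p = 0.00023), and in DKO, at 0 to 6.16 (-2.88 ± 0.43, adjusted p = 0.00011). Sult2a3, Sult2a5 and Sult2a6 were at 0 in all 18 libraries of the other groups, and Sult2a4 in 17 of them. Sult2a1 and Sult2a2 were at most 5.31 there. Among the libraries labelled Trib1-KO these 6 genes ranged from 4.49 for the lowest Sult2a4 library to 848 for the highest Sult2a1 library. C3 was the highest library for each of Sult2a1 to Sult2a7.

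Of the 12 further family genes, 8 reached a mean of 1 and were tested, these 7 Sult2a genes and Sult4a1. All but Sult2a7 got there only through the libraries labelled Trib1-KO, so a count of their rises supports nothing. Sult4a1, at a low level, was at 1.93 to 8.25 in those libraries and at 0 to 2.22 in WT. Sult1c1 was listed at 0 in all 24 libraries, and Sult2b1, Sult6b1 and Sult6b2 were too low to be tested. Summed without Sult2a8, the Sult2a genes stood at 2503 ± 1438 (SD, n = 6) in the libraries labelled Trib1-KO against 24.8 ± 11.9 (SD, n = 6) in WT. With Sult2a8 included, the sums were 9744 ± 1951 and 14155 ± 1693 (SD, n = 6), with overlapping ranges.

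Sult5a1 (ENSMUSG00000000739.14, chromosome 8, 123140192 to 123158315, minus strand) varied widely between the libraries of a group. It stood at 346, 191, 222, 155, 149 and 113 in WT, and at 330, 412, 730, 309, 401 and 403 in the libraries labelled Trib1-KO. WT library A1 reached into the range of the latter, and the rise of 1.16 ± 0.41 passed narrowly (adjusted p = 0.041). The call was lost without a filter on low values (adjusted p = 0.060) and without any 1 of A2, B1, B2, B3, C2, C3, D2 and D3 (adjusted p up to 0.10). In Cebpa-KO it ran from 20.8 to 149 (median 63.5), where only E2 at 149 reached above the lowest WT library, a fall of -1.64 ± 0.41 (adjusted p = 0.0094). DKO ran from 45.9 to 198 (median 112) and the difference of -0.93 ± 0.41 did not pass (adjusted p = 0.22).

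**Figure D3:**
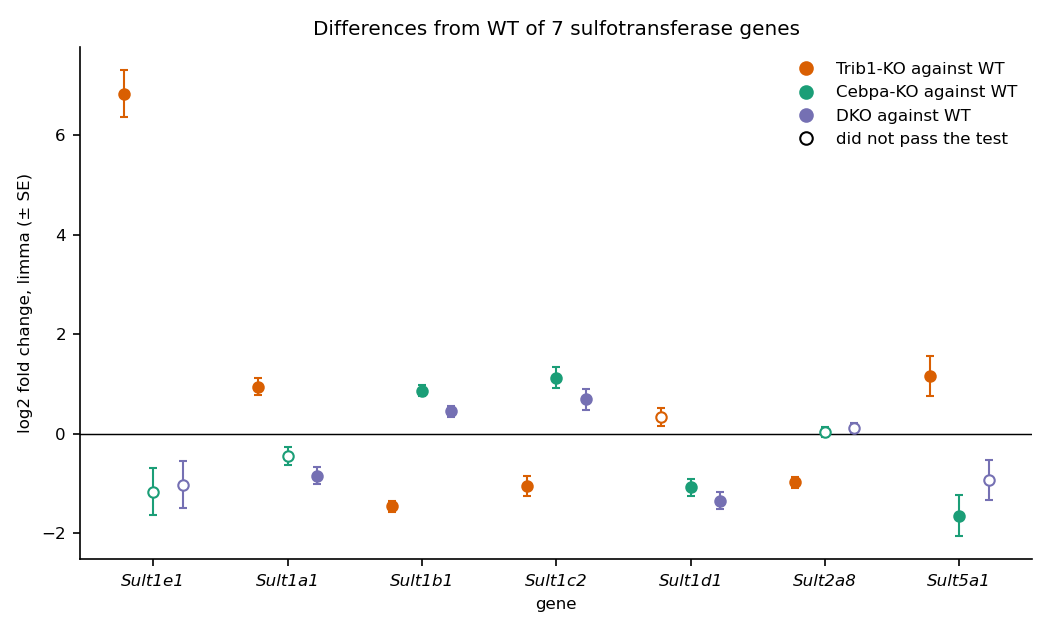
Log2 fold change against WT with its standard error (vertical axis) for 7 members in the groups named Trib1-KO, Cebpa-KO and DKO by label, from a limma fit over 24 libraries; open circles did not pass at an adjusted p of 0.05, and Sult3a1 and Sult3a2 are left out because groups are listed at 0. Sult1b1 and Sult1c2 are below 0 in Trib1-KO and above 0 in the other groups, and Sult1e1 stands at 6.83 in Trib1-KO.

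Between the groups with floxed Cebpa, the libraries labelled DKO were compared with Cebpa-KO to see the difference that goes with floxed Trib1 on that background. With limma, 0 of 9 members rose and 0 fell, where 0.0808% and 0.121% of all genes were higher and lower. Sult3a1 and Sult3a2 stood at or near 0 in both groups, which left little room for a fall. An unadjusted limma p under 0.05 was found in 3 members. The clearest was Sult1b1, whose 6 DKO libraries (723 to 900) all lay below those of Cebpa-KO (944 to 1229), at -0.42 ± 0.11 (adjusted p = 0.15). It was the 1 member without overlap there, against 0.712% of all genes. Sult1c2 stood at -0.44 ± 0.20 (adjusted p = 0.51) and Sult1a1 at -0.40 ± 0.18 (adjusted p = 0.49), both with overlapping libraries.

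The libraries labelled DKO differed from those labelled Trib1-KO in all 7 members counted, with 3 higher (Sult1b1, Sult1c2 and Sult2a8) and 4 lower, where 14.6% of all genes were higher and 15.7% lower. The groups overlapped in none of the 7, and in all genes 16.9% did not overlap. Sult1b1 was higher by 1.91 ± 0.11 (adjusted p = 1.2e-12), Sult1c2 by 1.74 ± 0.20 (adjusted p = 2.3e-07) and Sult2a8 by 1.09 ± 0.11 (adjusted p = 1.8e-08). Sult1e1 stood at -7.85 ± 0.47 (adjusted p = 2.2e-12), Sult5a1 at -2.09 ± 0.41 (adjusted p = 0.00026), Sult1a1 at -1.79 ± 0.18 (adjusted p = 1.6e-08) and Sult1d1 at -1.68 ± 0.18 (adjusted p = 4.8e-08). The difference of the differences (the interaction: DKO minus Cebpa-KO, less Trib1-KO minus WT) asks whether floxed Trib1 went with another change where Cebpa was also floxed. It passed in 4 of the 7, 2 above 0 and 2 below, where 6.35% and 6.22% of all genes were called. Sult1b1 and Sult2a8 were above 0, at 1.04 ± 0.16 (adjusted p = 4.8e-05) and 1.05 ± 0.15 (adjusted p = 3e-05). Sult1e1 (-6.68 ± 0.67, adjusted p = 1.2e-07) and Sult1a1 (-1.35 ± 0.25, adjusted p = 0.00054) were below 0. Sult1c2 (0.61 ± 0.29, adjusted p = 0.18), Sult1d1 (-0.61 ± 0.25, adjusted p = 0.13) and Sult5a1 (-0.45 ± 0.58, adjusted p = 0.70) did not pass. Sult1d1 passed with the Mup-free scaling (-0.85, adjusted p = 0.013) and without DKO library H2 (-0.73, adjusted p = 0.048). That scaling turned the interaction's calls over all genes from 1257 higher and 1233 lower to 625 and 2883, and those of DKO against the libraries labelled Trib1-KO from 2901 and 3105 to 1451 and 6345.

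Levels of different members were compared per kb of the longest annotated transcript. In WT the order of the mean levels per kb was Sult2a8 (6593), Sult1a1 (3565), Sult1d1 (935), Sult1b1 (225), Sult5a1 (51.5), Sult1c2 (37.1), Sult1e1 (2.43), Sult3a1 (0.879) and Sult3a2 (0). The 6-library ranges of Sult5a1 (29.8 to 91.0) and Sult1c2 (24.1 to 49.3) overlapped, as did those of Sult1e1 (0 to 7.12), Sult3a1 (0 to 1.76) and Sult3a2, while the other neighbours did not. In the libraries labelled Trib1-KO, Sult1a1 came first (6810 per kb) and Sult2a8 second (3379), with ranges that did not overlap (5897 to 7542 and 2644 to 4399). Sult1d1 followed (1167), then Sult3a1 (818), whose range of 354 to 1238 overlapped with that of Sult1d1 (1086 to 1325). Sult1e1 (309), Sult5a1 (113), Sult1b1 (81.4), Sult3a2 (39.8) and Sult1c2 (17.1) came next, and from Sult1d1 down every neighbouring pair had overlapping ranges. Cebpa-KO and DKO had Sult2a8, Sult1a1, Sult1d1 and Sult1b1 in the same first 4 places as WT, with overlapping ranges of the last pair. Of the summed normalized counts of all 21 family genes in the table, Sult2a8 took 63.7 ± 4.96% (SD, n = 6) in WT and 30.4 ± 4.97% in the libraries labelled Trib1-KO, and Sult1a1 took 22.2 ± 4.85% and 39.3 ± 5.09%. Sult3a1 took 3.86 ± 1.05% and Sult1e1 1.57 ± 0.46% in the libraries labelled Trib1-KO. The family total itself was 22158 ± 1709 in WT and 23943 ± 2762 (SD, n = 6) in those libraries, with overlapping ranges. With the Mup-free scaling the ranges of that total no longer overlapped (19264 to 23544 in WT and 24033 to 32219). That scaling also moved the median log2 difference of all genes in this comparison from 0.01 to 0.24. The log2 difference of the total was 0.35 with it, so much of the shift is shared with all genes.

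**Figure D4:**
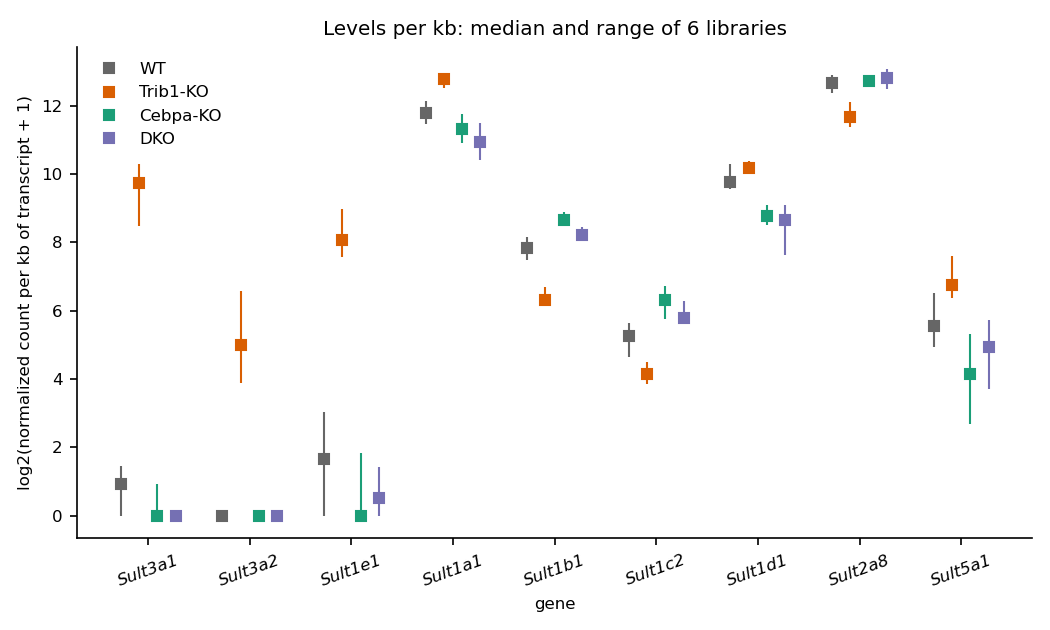
Squares are medians and lines the lowest to highest of 6 libraries per group, on log2 of the normalized count per kb of the longest transcript plus 1, for the 9 members. Sult2a8 and Sult1a1 lead in every group and change places in the libraries labelled Trib1-KO.

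Genes of neighbouring pathways were read from fixed lists, and their counts in the libraries labelled Trib1-KO are given with those under the Mup-free scaling, because that scaling moved many of them. Over all genes, 11.8% were higher and 10.9% lower in that comparison, and 5181 and 987 of 19835 Mup-free. Cebpa-KO against WT had 4.6% and 5.22%, and DKO against WT 2.84% and 3.25%. List counts near these shares say nothing particular of a list. Of 8 tested genes of PAPS synthesis, transport and breakdown, 1 rose, 3 fell and 4 did not pass (2 and 1 Mup-free), and the list median of -0.18 turned to 0.06. The sulfate transporter gene Slc26a1 fell by 0.77 (adjusted p = 8.9e-07), and by 0.53 (adjusted p = 5e-05) Mup-free. Slc35b3, which encodes a PAPS transporter, rose by 0.54 (adjusted p = 0.0012), and by 0.79 Mup-free. Bpnt1, whose product clears the spent donor, fell by 0.41 (adjusted p = 0.00023), and Slc35b2, another PAPS transporter gene, fell by 0.35 (adjusted p = 0.010), but Mup-free neither passed (adjusted p = 0.12 and 0.45). In Cebpa-KO and DKO against WT, limma called 0 of these 8 in either direction, and 1 and 2 had an unadjusted p under 0.05.

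Another list held 12 tested genes of cysteine and hydrogen sulfide metabolism, not all of which make sulfate. Of these, 1 rose and 4 fell in the libraries labelled Trib1-KO (3 and 2 Mup-free). Those that fell included the sulfite oxidase gene Suox (-0.68, adjusted p = 9.2e-06, and -0.44 Mup-free) and Csad (-1.13, adjusted p = 0.0030). Tst (-0.29, adjusted p = 0.0059) and Tstd1 (-0.52, adjusted p = 0.023) did not pass Mup-free (adjusted p = 0.72 and 0.22). The list median turned from -0.22 to 0.03. In Cebpa-KO 1 rose (Sqor) and 4 fell, led by the aspartate aminotransferase gene Got1 (-1.77, adjusted p = 0.00047) and including the transsulfuration genes Cbs (-0.69, adjusted p = 0.0037) and Cth (-0.63, adjusted p = 0.016). Of 12 sulfatases, which remove sulfate groups, 1 rose and 1 fell in the libraries labelled Trib1-KO (3 and 0 Mup-free), and 1 rose and 2 fell in Cebpa-KO. Of 19 Golgi sulfotransferases, which act on sugars and tyrosines of secreted proteins, 2 rose and 4 fell in the libraries labelled Trib1-KO (5 and 2 Mup-free). The smallest adjusted p was that of Chst11, a chondroitin sulfotransferase gene, which rose by 2.44 (adjusted p = 1.7e-05), and the uronyl sulfotransferase gene Ust rose by 0.84 (adjusted p = 0.0055). Both tyrosine enzymes were among those that fell, Tpst1 (-0.67, adjusted p = 2.1e-05; -0.43 Mup-free) and Tpst2 (-0.88, adjusted p = 0.00014).

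Of 18 estrogen and androgen converting enzymes, which make and remove steroid substrates, 3 rose and 8 fell in the libraries labelled Trib1-KO (4 and 7 Mup-free). Cyp17a1, the steroid 17-alpha-hydroxylase gene, rose by 4.35 (adjusted p = 8.8e-11), from a mean of 231 to 4195, and Cyp7b1, the oxysterol hydroxylase gene, fell by 1.91 (adjusted p = 3.7e-06). Hsd17b11 and Hsd3b2, of the hydroxysteroid dehydrogenases, fell by 1.14 and 1.34 (adjusted p = 3.4e-08 and 1.3e-06). Cyp17a1 was below WT in Cebpa-KO (-2.28, adjusted p = 1.4e-05) and in DKO (-1.82, adjusted p = 0.00043). Like Sult2a7, it had its highest mean in the libraries labelled Trib1-KO and the next in WT.

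Among 18 nuclear receptors and xenobiotic sensors, several of which are known to act on sulfotransferase genes, 6 rose and 4 fell in the libraries labelled Trib1-KO (8 and 3 Mup-free). Nr1i3, the receptor CAR, fell by 1.39 (adjusted p = 1.5e-07), and Nfe2l2, Rora and Nr1h4 (the bile acid receptor FXR) rose by 0.86, 0.59 and 0.45 (adjusted p = 5.3e-07, 6.2e-05 and 0.00017), the last by 0.69 Mup-free. In Cebpa-KO 2 rose and 2 fell (1 and 4 Mup-free), among them the estrogen receptor gene Esr1 (-1.28, adjusted p = 0.00019). Of 15 genes of growth hormone signalling and sex-biased regulation, 2 rose and 3 fell in the libraries labelled Trib1-KO (4 and 2 Mup-free), among them the growth hormone receptor gene Ghr (-0.54, adjusted p = 8.2e-06), Igf1 (-0.46, adjusted p = 9.8e-05), Trim24 (0.57, adjusted p = 0.018) and Foxa2 (-0.60, adjusted p = 0.024). Mup-free, Ghr stood at -0.30 (adjusted p = 0.0056), Igf1 at -0.21 (adjusted p = 0.035) and Trim24 at 0.82 (adjusted p = 0.00061), and Foxa2 did not pass (-0.36, adjusted p = 0.17). In Cebpa-KO against WT, 1 of these 15 rose (Ghr, 0.29, limma adjusted p = 0.015) and 2 fell (0 and 2 Mup-free). There 7 had an unadjusted limma p under 0.05. In DKO against WT, limma called 0 of these 15 in each direction, and 3 had an unadjusted p under 0.05.

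The genes whose log2 values followed each member most closely over the 24 libraries were taken from 12628 genes with a mean of at least 10. These correlations rest largely on differences between the 4 groups and are a description. For Sult3a1 they were Sult2a3 (Pearson r = 0.990), Wwtr1 (0.986) and Mup6 (0.983), and for Sult3a2 they were Sult2a3 (0.997), Sult2a5 (0.992) and Sult2a6 (0.987). Sult3a2, Sult2a3, Sult2a5 and Sult2a6 were at 0 in every library outside those labelled Trib1-KO, so a high r among them was fixed in advance. Sult2a3, Sult2a5 and Sult2a6 also reached a mean of 10 only through the libraries labelled Trib1-KO. Wwtr1 (0.967), Sult2a3 (0.966) and Mup8 (0.965) were nearest to Sult1e1. Sult1b1 was followed most closely by the urea cycle gene Otc (0.983), Phyh (0.973) and Cyp2c55 (0.972), Sult1c2 by Ttr (0.962), Car14 (0.958) and Ranbp3l (0.950), and Sult2a8 by the carboxylesterase genes Ces3a (0.975) and Ces3b (0.964) and by Abcb10 (0.962). For Sult1a1 the nearest were Fcor (0.918), Nipal1 (0.917) and Rnd2 (0.915), and for Sult1d1 Lrtm1 (0.936), Slc43a1 (0.925) and Pemt (0.924). Sult5a1 had the loosest neighbours, Eif4g3 (0.874), Cers2 (0.864) and Kif1c (0.861).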

How the data were processed

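RNA was sequenced from 24 livers with stranded poly(A) libraries, per the labels. The deposited values are a signal, normalized estimated counts per gene. The submitters' processing notes name Salmon, DESeq2 and GRCm38.p6, with no version or role, so the exact steps of the authors are not given in the sources used here. Of 54432 gene identifiers, 54050 (99.3%) were in GENCODE M21 (GRCm38), which gave coordinates. Columns name the group but not the mouse, so a library could not be assigned to its cohort and no cohort term was fitted. Each group's names carry 2 letters with 3 libraries each (A and B in WT, C and D in Trib1-KO, E and F in Cebpa-KO, G and H in DKO), and what they stand for is not given in the sources used here. With 6 libraries a group, precision rests on the spread between mice.

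The 19810 genes whose mean reached 1 were tested in 1 limma model (version 3.58.1, R 4.3.3) of the 4 group means, with values as log2(value + 1) and limma's trend option. The method was checked on simulated data. Family sums were given no test. All 9 members, tested family genes, up to 4 called genes per list with the smallest adjusted p, and the 3 most correlated genes per member were named, except 1 list gene that is not reported here. Members and lists were chosen with earlier results of these data known. Alternatives were pseudocounts of 0.5 and 5, a minimum mean of 10, no filter, Mup-free scaling, quantile normalization, library weights, a fit of only the groups compared, a replicate block, and each library left out. A mean for each letter, with the group as their average, was added after seeing the data.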

Additional observations from a re-analysis of the deposited data

Results flagged for a closer look

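Sult3a1 was at 1.06 in Cebpa-KO library E1 and listed at 0 in the other 5 libraries. With 5 libraries at 0 any value above 0 passes the limit used here, so about 1 normalized count does not show that E1 stands apart. In the libraries labelled Trib1-KO, C3 stood apart for Sult5a1 at 730, where the other 5 were at 309 to 412. These were the 2 of 32 member and group combinations in which the gap to the nearest library, as a share of the group's range, was over Dixon's 95% critical value, which chance passes in about 1 in 20 groups.

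The difference that goes with floxed Trib1 was not the same with and without floxed Cebpa in 4 of 7 members, by the limma interaction test over all genes. That test called 6.35% of all genes above 0 and 6.22% below 0. The adjusted p was 1.2e-07 for Sult1e1, 0.00054 for Sult1a1, 4.8e-05 for Sult1b1 and 3e-05 for Sult2a8. It was 1.5e-12 for Sult3a1 and 1.5e-08 for Sult3a2, which passed the filter on low values only through the libraries labelled Trib1-KO and are not counted.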

How the results depend on the processing

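Each of the 54 member values (9 members in 6 comparisons) was recomputed under up to 10 other settings and without each of the 24 libraries in turn. Under other settings 510 values kept their direction and their side of the threshold, 5 lost the call, 2 gained it and 1 changed sign. With 1 library left out the numbers were 1277, 14, 3 and 2. These numbers include Sult3a1 and Sult3a2, which passed the filter on low values only through the libraries labelled Trib1-KO. Sult3a2 was at 0 in every library of WT, Cebpa-KO and DKO, so its differences among those groups could not change. Many left-out libraries were of a group not compared, which leaves the difference itself as it was. The numbers therefore overstate how stable the values are. Signs changed for differences near 0. Sult2a8 in Cebpa-KO against WT was -0.0080 with the Mup-free scaling, and -0.0251 to 0.0763 with 1 library left out. Sult1e1 in DKO against Cebpa-KO was -0.0464 to 0.4592 with 1 library left out. The number of members higher in DKO than in WT fell from 2 to 1 with no filter on low values, with quantile normalization, with only those groups in the fit and with letter means (a mean for each letter in the library names, added after seeing the data), and was 1 to 2 with 1 library left out, each time through Sult1c2. The cause was not tested. The replicate block, which uses the number in the column name, changed no call of a member. Deviations of libraries with the same number gave 18 correlations from -0.17 to 0.17 (median 0.05, 6 of them above 0.1). Those with different numbers gave 36 from -0.17 to 0.20 (median -0.04, 5 of them above 0.1). These ranges overlap, and the check cannot decide whether the numbers pair the samples. Over all genes, DKO against Cebpa-KO had 16 higher and 24 lower genes. The higher ones numbered 5 with only those groups in the fit, 5 with letter means, 8 with no filter, 25 with library weights, 34 with the replicate block, and 6 (without G2) to 36 (without F3) with 1 library left out, where C1, C2, D2, E1, E2, E3, F1, F2 and H1 also moved the count by over 1.5 times. The lower ones numbered 14 with only those groups, 15 with letter means, 13 without E1, 15 without F1 and 12 without G2. DKO against WT had 643 lower genes, and 428 with only those groups. Values near 1 normalized count limit what can be said of Sult3a1, Sult3a2 and Sult1e1 outside the libraries labelled Trib1-KO.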

Other observations

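Cebpa-KO library E1 was the highest of its group for 7 family genes, and in proportion the difference was largest among the genes that were low there. E1 was picked after the values were seen, and how often it was highest over all genes was not counted. Sult2a7 stood at 10.6 in E1 against 0.915 to 2.81 in the other 5 libraries, Sult2a2 at 5.31 against 0 to 0.935, and Sult1e1 at 3.18 against 0 to 0.935. The others were Sult3a1, Sult2a1 and Sult2a4, each at only 1.06, and Sult2a8. How reads were divided among Sult2a1, Sult2a2 and Sult2a4 is uncertain, so these genes are not separate observations. The E1 values of all but Sult2a8 were far below those in the libraries labelled Trib1-KO.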
